A study of Mus musculus with 20 samples.

Results

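Hearts of mice lacking Sorbs2 (KO) were compared with wild-type (WT) hearts at 6 weeks of age, in 3 KO and 3 WT libraries out of 20 in the study. The libraries were chosen as the columns of the 6-week table, WT1, WT6 and WT16 against KO2, KO3 and KO4; these column names match the labels' groups but not single samples. The other 14 libraries are from 6-month-old hearts: 5 WT, 5 KO, and 4 KO mice (KO+AAV) injected at P2, in the first days after birth, with AAV9-Tnnt2-Sorbs2, a virus vector that carries Sorbs2 behind a cardiomyocyte promoter. Both 6-week groups and the WT and KO groups at 6 months were untreated. For strain, sex and the design of the knockout allele, nothing is stated in the sources used here. The samples are labelled as left ventricle, and nothing says whether replicates were separate animals, so p-values measure the spread between these libraries. Of 17808 genes in the 6-week table, 13242 had a normalised count of 10 or more in at least 3 libraries and were tested.

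Sorbs2 encodes an adaptor protein with SH3 domains that sits at the Z-disc and intercalated disc of heart muscle and binds actin-associated and signalling proteins. The adult mouse ventricle contracts mainly with the alpha-myosin heavy chain Myh6, while the beta chain Myh7 and skeletal alpha-actin Acta1 belong to the fetal heart and return in a loaded or failing ventricle. Glucocorticoid hormones act on the heart through the receptor Nr3c1, and the circadian clock runs there through opposed arms, Clock and Arntl on one side and the Per genes on the other.

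Total normalised counts were 6705133 to 8240294 in WT and 6790437 to 7414665 in KO. Xist was expressed in WT1 and KO2, and Y-linked genes in the other 4 libraries. The first principal component held 34.9% of the variance. WT1 and WT6 lay at -47.4 and -33.5 on it, and KO3 and KO4 at 36.7 and 35.6. WT16 and KO2 lay close to each other between them, at 1.4 and 7.2. On the third component, which held 20%, KO2 lay apart, at 51.9 against -12.8 in KO3 and -18.5 in KO4. All 6 libraries carried transcripts of atrial muscle, although the label is left ventricle. The atrial myosin light chain Myl7 was at 29233, 32889 and 22450.1 normalised counts in WT1, WT6 and WT16 and at 35244, 27989.6 and 20062 in KO2, KO3 and KO4. In the 14 libraries at 6 months its median was 2.77 and its highest value 459. The tables were normalised separately, so Myl7 was also set against the ventricular light chain Myl2 within each library: it came to 21.8% to 50.8% of Myl2 at 6 weeks and to at most 0.526% at 6 months. The atrial growth factor Bmp10 was at 29.1 to 111 at 6 weeks and at most at 1.88 at 6 months. The 13 atrial markers summed to 1.62% to 2.45% of the library total in WT and 2.00% to 3.33% in KO, and none of the 13 passed the test between the genotypes.

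Markers of further tissues were unequally present. The airway gene Scgb1a1 was at 30.6, 42.7 and 31.3 in WT and at 15.4, 1981 and 772 in KO2, KO3 and KO4, and the 10 thymus and lung genes in the table summed to 0.0315% and 0.0130% of the total in KO3 and KO4 and at most 0.00138% elsewhere. The 16 Schwann cell markers, genes of the glia that wrap nerves, summed to 0.0177% to 0.0232% of the total in WT, 0.0262% in KO2, 0.0466% in KO3 and 0.0451% in KO4. The neuronal filament gene Prph was at 13.2, 5.12 and 191 in WT and at 50, 161 and 158 in KO. KO3 and KO4 thus stood apart for airway and Schwann cell genes, and WT1 and WT6 were the lowest for Prph. The part of these tissue differences in the gene changes was not tested. Values without a library, or with a marker's level as a covariate, are given below. With 6 libraries, they cannot tell tissue content apart from genotype or from the loss of a library.

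**Figure D1:**
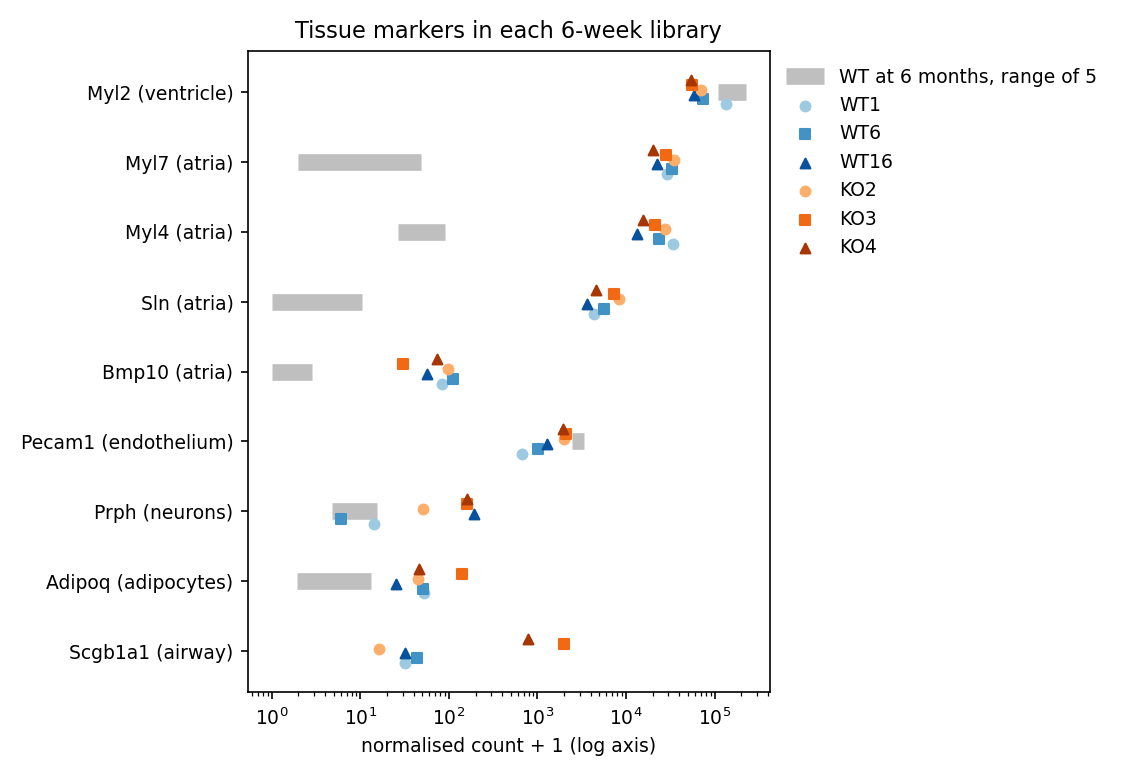
Normalised counts plus 1 (log axis) of 9 tissue marker genes in each of the 6 libraries at 6 weeks, with the range of the 5 WT libraries at 6 months as a grey bar. Atrial genes (Myl7, Myl4, Sln, Bmp10) were high in both genotypes at 6 weeks and low at 6 months, and Scgb1a1 was high in KO3 and KO4.

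The targeted gene was measured first. Sorbs2 (chr8:45507788-45827906, mm10, plus strand) was at 1409, 1751 and 1989.8 in WT1, WT6 and WT16 and at 365, 334 and 276 in KO2, KO3 and KO4. Every KO library lay below every WT library, with the KO mean at 18.9% of WT (log2 -2.39 ± 0.20, adjusted p = 0.000553 by limma, n = 3 and 3). The exact two-sided permutation p was 0.1, the smallest that 3 against 3 libraries can give. Its paralogue Sorbs3, an adaptor of the same family, was at 777 to 1079 in WT and 1287 to 1627 in KO (log2 0.65, adjusted p = 0.153). It lay higher in every KO library without passing the test.

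In all, 78 genes passed an adjusted p of 0.05 (limma, Benjamini-Hochberg over all tested genes), or 0.589% of those tested: 50 rose (0.378%) and 28 fell (0.211%), Sorbs2 among them. These shares are the background for each count of called list members given below. The change was 2-fold or more in every increase and in 27 decreases, and in all 78 the KO and WT libraries did not overlap. Over all tested genes, 10.9% had every KO above every WT library and 10.3% every KO below. The count moved with single libraries: 49 genes passed without WT1, 8 without WT6, 128 without WT16, 154 without KO2, 9 without KO3 and 7 without KO4. Of the 77 called genes other than Sorbs2, 5 kept the call whichever library was left out: Thbs4 and Casq1, which rose, and Arhgef19, Colq and Pfkfb1, which fell. The other 72 lost it at least once, 70 of them without WT6, 69 without KO3 and 71 without KO4, and the highest adjusted p reached by any was 0.234. With KO3 and KO4, the libraries with the most airway transcripts, both left out, the log2 change of Sorbs2 was -2.22. The lone KO library was then assumed to vary like the WT libraries. With the Prph level as a covariate 15 genes passed, and with the Myl7 level 130, which included all 77. The threshold fell between Cnksr1 (adjusted p = 0.0499), with Sox18, Spon2 and Aldh9a1 also just inside, and Rtn4 (0.0508), with Pde4a, Gpihbp1 and Per2 just outside.

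**Figure D2:**
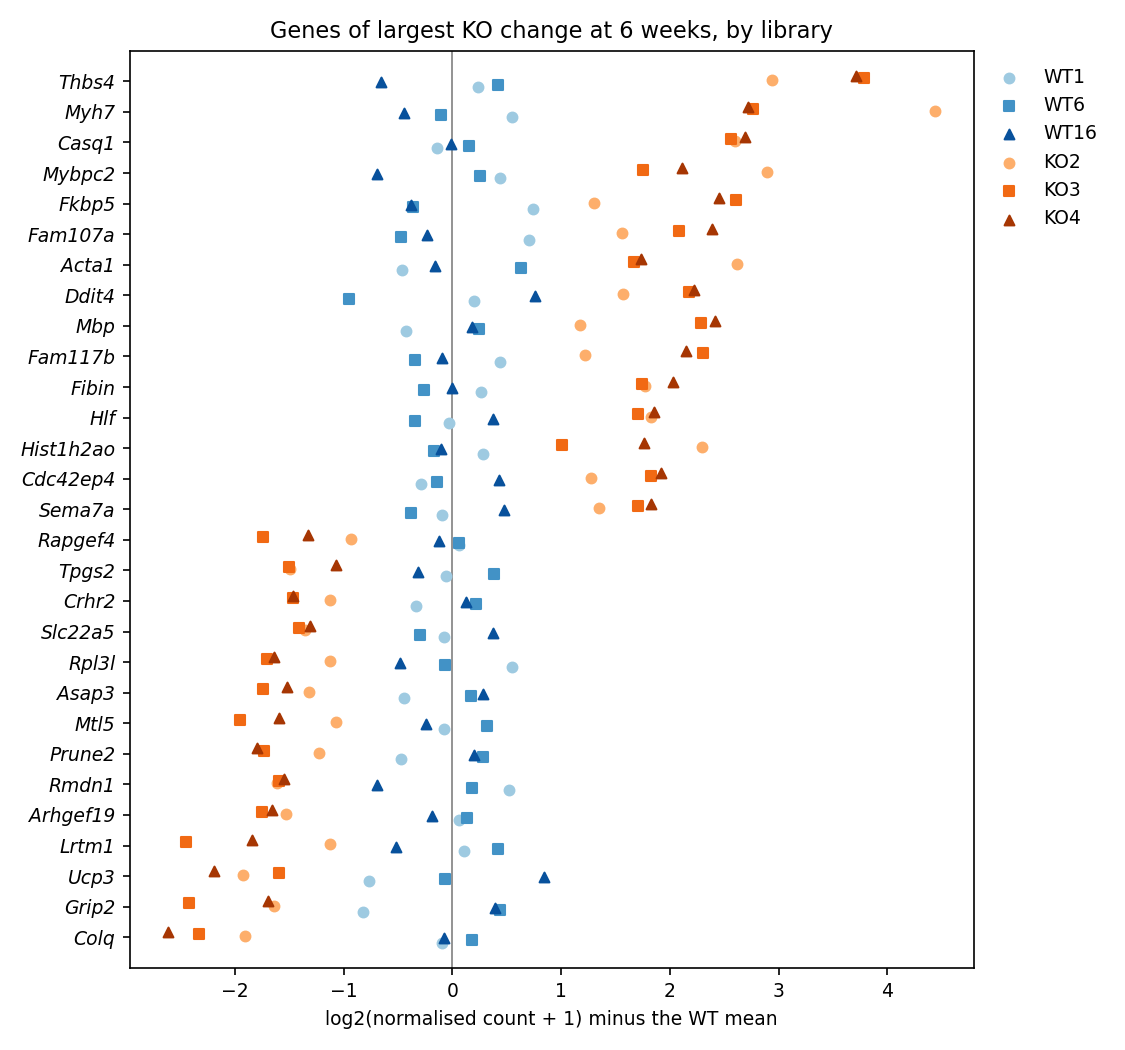
The log2(normalised count + 1) of each library minus the WT mean, for the 15 genes of largest increase and 14 of those of largest decrease among called genes with a mean of at least 100. KO2 lies above KO3 and KO4 for Myh7 and Acta1 and nearer to WT than they do for Fkbp5.

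Fetal and skeletal muscle isoforms were among the largest increases. Of 15 tested genes of the stress and fetal list, 2 rose and none fell, against 0.378% and 0.211% of all genes. In 5 of them every KO lay above every WT library (33.3%, against 10.9% of all genes), and in none every KO lay below. The median log2 change of the list was 0.45, against 0.01 for all genes. Myh7 (chr14:54970684-54994626), the beta-myosin heavy chain, was at 1750.4, 1117 and 883 in WT1, WT6 and WT16 and at 26077, 8156 and 7892 in KO2, KO3 and KO4. KO2 stood far above the other 2 KO libraries, and all KO exceeded all WT, with a 9.90-fold difference on the log2(value + 1) scale (log2 3.31 ± 0.42, adjusted p = 0.00791; 0.0550 without WT6). Its level is uncertain in part, since 13.3% of its exon bases lie under exons of the opposite strand, the noncoding Mhrt among them, and 22.9% of its 31-base words occur in another gene, most in Myh6. Myh6 was at 189385 to 263001 in WT and 139341 to 175697 in KO and did not pass (log2 -0.49, adjusted p = 0.629). Acta1 (chr8:123891769-123894751) was at 1347, 2863 and 1655 in WT and 11395, 5893 and 6166 in KO2, KO3 and KO4 (log2 2.01 ± 0.32, adjusted p = 0.0264). As with Myh7, KO2 was the highest. The natriuretic peptide gene Nppa, which atria express strongly, was at 56246 to 115778 in WT and 81401 to 154430 in KO, ranges that overlapped (adjusted p = 0.655).

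Among 17 tested skeletal muscle isoforms, 3 rose and none fell, against 0.378% and 0.211% of all genes, with a median of 0.11. In 5 of them every KO lay above every WT library (29.4%, against 10.9% of all genes). In 1 every KO lay below (5.9%, against 10.3%). Casq1 (chr1:172209894-172219868), the skeletal calsequestrin that buffers calcium in the sarcoplasmic reticulum, gave the smallest p of all genes. It was at 161, 198 and 177 in WT and 1082, 1053 and 1154 in KO2, KO3 and KO4, 6.13-fold higher (log2 2.62 ± 0.18, adjusted p = 0.000122), with narrow ranges in both genotypes. It also passed under every alternative tried for it. Mybpc2 (chr7:44501699-44524656), the fast myosin-binding protein C, was at 198, 174 and 89.7 in WT and 1087, 494 and 632 in KO (log2 2.25 ± 0.34, adjusted p = 0.0217). The slow skeletal troponin I gene Tnni1 was at 50.5, 23.8 and 28.0 in WT and 160.4, 112 and 122 in KO (log2 1.97 ± 0.32, adjusted p = 0.0264). These rose without a general rise of the list: Cacna1s, the skeletal calcium channel subunit, was at 43.0 to 61.0 in WT and 6.68 to 21.6 in KO (log2 -2.02, adjusted p = 0.0679). Myh1, Myh2 and Myh4, myosins that define fast skeletal muscle, were at or below 2.69 in every library.

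A short element recurred before the starts of increased genes, and the 250 bases before the start are shown for 4 genes that hold it, which are also among the largest increases. M-CAT (CATTCC, or GGAATG on the other strand) is bound by TEAD factors in muscle genes, and capitals mark its letters. The sequences are taken from RefSeq starts on GRCm38.p6 and written 5′ to 3′ on the gene's own, minus strand: Myh7 at chr14:54994627-54994876, Acta1 at chr8:123894776-123895025, Mybpc2 at chr7:44524670-44524919 and Thbs4 at chr13:92794819-92795068.
Myh7: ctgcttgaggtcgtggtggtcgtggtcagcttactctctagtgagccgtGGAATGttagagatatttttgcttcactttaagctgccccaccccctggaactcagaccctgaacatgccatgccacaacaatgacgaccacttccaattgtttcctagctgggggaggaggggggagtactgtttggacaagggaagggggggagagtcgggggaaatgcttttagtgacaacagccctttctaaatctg
Acta1: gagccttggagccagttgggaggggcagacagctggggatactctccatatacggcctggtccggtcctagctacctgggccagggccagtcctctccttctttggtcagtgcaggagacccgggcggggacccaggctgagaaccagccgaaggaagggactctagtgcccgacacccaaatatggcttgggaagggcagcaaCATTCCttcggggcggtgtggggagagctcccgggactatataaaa
Mybpc2: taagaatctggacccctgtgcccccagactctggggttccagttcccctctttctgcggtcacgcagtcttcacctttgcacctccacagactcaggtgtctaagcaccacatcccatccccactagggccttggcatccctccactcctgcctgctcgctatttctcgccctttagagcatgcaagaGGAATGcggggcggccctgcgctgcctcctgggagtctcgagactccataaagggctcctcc
Thbs4: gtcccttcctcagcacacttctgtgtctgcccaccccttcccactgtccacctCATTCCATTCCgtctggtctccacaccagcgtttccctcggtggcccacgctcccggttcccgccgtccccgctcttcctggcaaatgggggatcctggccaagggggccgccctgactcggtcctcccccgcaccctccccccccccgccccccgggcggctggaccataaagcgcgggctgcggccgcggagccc

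Counted from the start, the letters stood at -201 in Myh7, -46 in Acta1 and -62 in Mybpc2, and as overlapping copies at -197 and -192 in Thbs4. Of the 41 increases with a promoter in the reference table, 12 (29.3%) held M-CAT on either strand: these 4 and Fibin, Kcna5, Mcf2l, Aldh1a1, Prnp, Cd200, Tinagl1 and Bst2. Of 19 decreases 1 did, Trim7, and of 27025 promoters of the same length 12.6% did, or 10.7% of the 10008 whose genes were tested. Other motifs were searched in the same way. The glucocorticoid receptor half-site TGTTCT was in 4 of 41 increases (9.76%) and 4 of 19 decreases (21.1%), against 16.2% of all promoters and 10.7% of those of tested genes. The E-box CACGTG, which Clock and Arntl bind, was in 3 (Fkbp5, Cnksr1 and Gadd45b) of the increases and in none of the decreases, against 6.05% of all promoters and 8.51% of those of tested genes. The D-box TTATGTAA, which Hlf binds, was in 1 increase (Prnp) and in none of the decreases, against 0.862% and 0.490%. These are matches of letters in a short window and do not show binding. None of 11 tested TEAD genes and cofactors passed; Tead1 was at 385 to 786 in WT and 526 to 657 in KO (log2 -0.02, adjusted p = 0.977).

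Of 60 tested extracellular matrix genes, 3 rose and none fell, against 0.378% and 0.211% of all genes. In 25 of them every KO lay above every WT library (41.7%, against 10.9% of all genes) and in 1 every KO lay below, with a median log2 change of 0.44. Thbs4 (chr13:92751590-92794818), a matricellular thrombospondin, was at 58.4, 66.5 and 31 in WT and 386, 693 and 659.9 in KO2, KO3 and KO4, 11.1-fold higher (log2 3.48 ± 0.32, adjusted p = 0.000884; 0.102 with KO3 and KO4 both left out). KO2 was the lowest of the KO libraries and still far above the highest WT library. Fibin, a secreted factor, was at 65.6, 45.2 and 54.4 in WT and 189, 185 and 224 in KO (log2 1.85 ± 0.23, adjusted p = 0.00791). Cilp, a matrix protein of cartilage and of heart fibroblasts, was at 107, 106 and 105 in WT and 226, 464 and 301 in KO (log2 1.57 ± 0.26, adjusted p = 0.0264). Its WT values lay close together, while the KO values were spread. The metalloproteinase inhibitor Timp3 was at 2169.8 to 2692 in WT and 4313 to 5468 in KO without passing (log2 0.97, adjusted p = 0.0606). Col5a3, a fibrillar collagen, was the 1 member with every KO below WT, at 656 to 952 and 316 to 578 (log2 -0.96, adjusted p = 0.103).

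Secreted proteins outside that list also rose. Adamtsl2, which binds microfibrils, was at 339 to 506 in WT and 861 to 1389 in KO (log2 1.53, adjusted p = 0.0233). C1qtnf6, a secreted protein with a collagen-like stretch, was at 129 to 233 and 357 to 599 (log2 1.39, adjusted p = 0.0447). Igfbp7, which binds insulin-like growth factors, was at 1161, 1571 and 1689.9 in WT and 2692, 4082 and 4821 in KO (log2 1.37 ± 0.25, adjusted p = 0.0363). It was the 1 called among 20 genes of insulin-like growth factor and insulin signalling. The type 2 TGF-beta receptor Tgfbr2 was at 155 to 211 in WT and 352 to 387 in KO (log2 1.03, adjusted p = 0.0445) and was the 1 called among 25 genes of TGF-beta signalling and the CCN family. Ctgf, a TGF-beta responsive matricellular gene, was at 789 to 1131 and 1469 to 2375 (log2 1.17, adjusted p = 0.0577). None of 14 fibroblast markers passed, but their summed share of the total was higher in each KO library, at 0.569% to 0.649% against 0.436% to 0.458% in WT; its part in these changes was not tested. Of 13 markers of valve and cartilage-like cells, 2 rose, Thbs4 and Cilp, which the matrix list also holds (median 0.75); the list summed to 0.147% to 0.167% in WT and 0.166% to 0.211% in KO. None of 9 mesothelium and epicardium markers passed (median 0.65), with shares of 0.00590% to 0.00633% in WT and 0.00643% to 0.0118% in KO. None of 13 adipocyte markers passed (median 0.70), with shares of 0.0357% to 0.0480% in WT and 0.0470% to 0.102% in KO. KO3 was the highest of the 6 libraries for these 3 shares, and their part in the matrix changes was not tested. In bulk tissue, a different number of cells of a type and a different amount of RNA per cell cannot be told apart.

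By count alone, glucocorticoid-responsive genes were the list with the most called members. Of 32 tested targets of the glucocorticoid receptor, 4 rose and none fell, against 0.378% and 0.211% of all genes. Lists differ in size, and the called share was higher in, for example, the skeletal muscle isoforms (3 of 17) and the stress and fetal list (2 of 15). In 15 of the 32 targets every KO lay above every WT library (46.9%, against 10.9% of all genes). The median log2 change of the list was 0.74, and 0.65 to 0.79 with 1 library left out. Fkbp5 (chr17:28399094-28517527), a co-chaperone that restrains the receptor, was at 299.6, 139 and 137 in WT1, WT6 and WT16 and at 443, 1100.0 and 984 in KO2, KO3 and KO4 (log2 2.12 ± 0.37, adjusted p = 0.0314). KO2 lay nearer to WT1 than to KO3 or KO4. Fam107a, an actin-associated stress gene, was at 86.2, 37.6 and 44.3 in WT and 156, 226 and 278 in KO (log2 2.01 ± 0.33, adjusted p = 0.0264). Ddit4, an inhibitor of the growth kinase complex mTORC1, was at 235, 105 and 349 in WT and 612, 933 and 962 in KO (log2 1.99 ± 0.37, adjusted p = 0.0373). Arrdc2, an arrestin-domain gene, was at 175 to 335 in WT and 533 to 838 in KO (log2 1.37, adjusted p = 0.0447). All 4 lost the call without WT6, without KO3 or without KO4, with adjusted p up to 0.205 (Ddit4). The leucine zipper gene Tsc22d3, another standard target, was at 271 to 774 in WT and 1290.1 to 2271 in KO (log2 1.67, adjusted p = 0.0635). The receptor gene Nr3c1 was at 758 to 1000.1 and 752 to 830.5 (log2 -0.15, adjusted p = 0.721).

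Of 27 tested genes of the circadian clock and its outputs, 1 rose and none fell; in 10 every KO lay above WT (37.0%, against 10.9% of all genes) and in 3 every KO lay below (11.1%, against 10.3%), with a median of 0.41 (0.22 to 0.50 with 1 library left out). Hlf, a clock-controlled transcription factor, was at 93.7, 75.0 and 124 in WT and 342, 314 and 348 in KO (log2 1.80 ± 0.23, adjusted p = 0.00791; up to 0.0742 without 1 library, the call lost without WT6, KO3 or KO4). The repressor Per2 was at 355, 122 and 374 in WT and 685, 1120.1 and 1711 in KO (log2 2.11, adjusted p = 0.0531). The activators were lower in each KO library without passing: Clock was at 611 to 700.2 in WT and 300.0 to 399 in KO (adjusted p = 0.0606), and Arntl at 44.1 to 139 and 17.4 to 32.7 (0.107). WT6 was the lowest of the 6 libraries for Per1, Per2, Per3 and the kinase gene Wee1 and the highest for Clock and Arntl, while KO4 was the highest for those 4 and the lowest for Arntl; this reading of single libraries was chosen after the values were seen. Without WT6 and KO4 together, 4 genes of the whole table passed, against 8 without WT6 alone and 7 without KO4 alone. Without WT1 and KO2 together, 455 passed. These counts are of all genes, so they cannot show a part of the clock. The hour of dissection was not stated, and its part was not tested. Among 25 immediate early genes, which respond quickly to stimuli, 1 rose: Ier5, at 172 to 226 in WT and 416 to 457 in KO (log2 1.08, adjusted p = 0.0314 by limma). In 9 of the 25 every KO lay above every WT library (36.0%, against 10.9% of all genes), and in none every KO lay below.

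**Figure D3:**
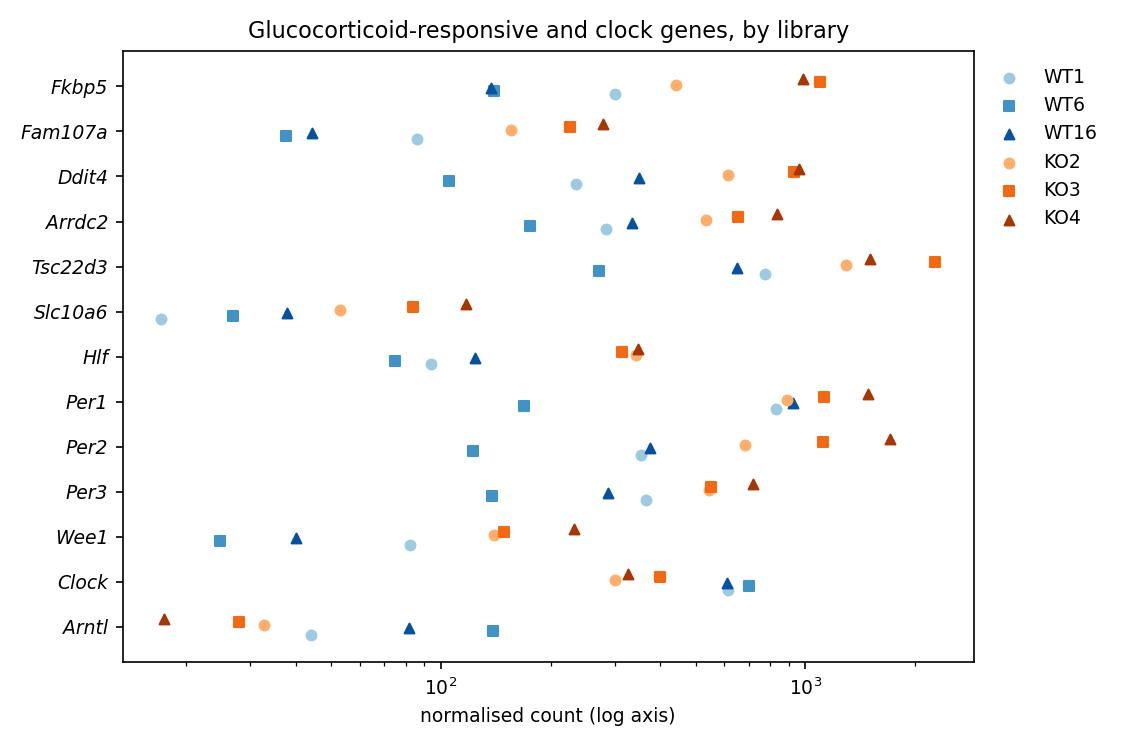
Normalised counts (log axis) of 6 glucocorticoid-responsive genes (Fkbp5 to Slc10a6) and 7 clock genes (Hlf to Arntl) in each library at 6 weeks. WT6 is lowest for the Per genes and Wee1 and highest for Clock and Arntl, and KO4 is highest for the Per genes and Wee1.

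Ly6c1, a surface protein of endothelial cells and monocytes, was at 827, 1075 and 1524 in WT and 3409, 3075 and 3055 in KO (log2 1.52 ± 0.23, adjusted p = 0.0233); 46.8% of its 31-base words are shared with another gene, most with Ly6c2. Hey1, a Notch target, was at 152, 148 and 139 in WT and 291, 366 and 353 in KO (log2 1.19 ± 0.19, adjusted p = 0.0264). The ranges of Hey1 were narrow in both genotypes. Ramp2, a subunit of the adrenomedullin receptor, was at 242 to 363 and 603 to 720.0 (log2 1.20, adjusted p = 0.0280), with 33.4% of its exon bases shared with Vps25. Sox18, an endothelial transcription factor, was at 352 to 521 and 729 to 1084 (log2 1.13, adjusted p = 0.0493). The adhesion receptor Adgrg1 had a log2 change of 1.32 and the basement membrane protein Tinagl1 one of 1.12. None of 16 endothelial markers passed. In 7 every KO lay above WT (43.8%, against 10.9% of all genes) and in 1, Prox1, every KO lay below. Pecam1, one of those above, was at 659.7 to 1274 in WT and 1966 to 2096 in KO (log2 1.09, adjusted p = 0.0691). Endothelial markers summed to 0.177% to 0.258% of the total in WT and 0.298% to 0.388% in KO, and ventricular cardiomyocyte markers to 7.93% to 9.70% in WT and 6.75% to 7.42% in KO; the part of these shares was not tested.

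The nerve-associated gene among the increases was Mbp, myelin basic protein, at 56.6, 90.9 and 86.7 in WT and 174, 376 and 412 in KO2, KO3 and KO4 (log2 1.96 ± 0.33, adjusted p = 0.0264). It was highest in KO3 and KO4, where the summed share of Schwann cell markers was highest too, and its call was lost without WT1, WT6, KO3 or KO4 (adjusted p up to 0.181). Of 16 Schwann cell markers Mbp alone passed, and in 6 every KO lay above WT (37.5%, against 10.9% of all genes). None of 13 neuronal markers passed; their median was 1.5, but their summed share in WT16, 0.0224%, exceeded that of each KO library.

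The other increases were spread over many functions. Kcna5, the potassium channel Kv1.5 of the ultrarapid current, was at 281, 194 and 326 in WT and 633, 856 and 906 in KO (log2 1.59 ± 0.23, adjusted p = 0.0217) and was the 1 called among 36 ion channel genes. Bcl2l1, which encodes the survival protein Bcl-xL, was at 376, 256 and 308 in WT and 797, 947 and 1048 in KO (log2 1.58 ± 0.20, adjusted p = 0.00885). Sema7a, a membrane semaphorin, was at 198, 163 and 296 in WT and 542, 695 and 756 in KO (log2 1.63 ± 0.24, adjusted p = 0.0217). Each of these 3 was lowest among the KO libraries in KO2. Cdc42ep4, an effector of the actin regulator Cdc42, was at 97.0, 108 and 161 in WT and 289, 424 and 452 in KO (log2 1.67 ± 0.25, adjusted p = 0.0233). Fam117b was at 185, 107 and 127 in WT and 318, 676 and 607 in KO (log2 1.89 ± 0.30, adjusted p = 0.0261). Adh1, an alcohol dehydrogenase, was at 256, 248 and 245 in WT and 958, 581 and 486 in KO (log2 1.37 ± 0.24, adjusted p = 0.0314), with KO2 the highest.

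The remaining increases had log2 changes from 1.08 to 2.03 and are named by role. Regulators of the cytoskeleton and adhesion were Mcf2l, an exchange factor for small GTPases (1.33), and the focal adhesion protein Tes (1.25). Stress genes were Gadd45b (1.57) and the chaperone Hspa2 (1.55). Enzymes were Aldh1a1, which makes retinoic acid (1.25), the monooxygenase Fmo2 (1.49) and the sulfotransferase Tpst2 (1.11). Sensors and regulators of metabolism were Thrsp, a thyroid hormone target of lipid synthesis (1.29), and Gatsl3, an arginine sensor also known as Castor1 (1.35). Immune-related genes were the interferon-inducible Bst2 (1.08), H2-T23 of the major histocompatibility complex (1.10, with 24.5% of its 31-base words shared) and the inhibitory ligand Cd200 (1.19). The rest were Fam46b (2.03), the scaffold Cnksr1 (1.60), Fam171a2 (1.54), the membrane protein Emp1 (1.34) and the prion protein gene Prnp (1.19).

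Metabolic genes fell singly rather than as called groups. Pfkfb1 (chrX:150588229-150643878), which sets the level of the glycolytic activator fructose 2,6-bisphosphate, was at 141, 139 and 148 in WT and 32.4, 29.0 and 24.0 in KO2, KO3 and KO4 (log2 -2.29 ± 0.25, adjusted p = 0.00308). The KO mean was 20% of WT, and Pfkfb1 was the 1 called among 34 genes of glucose uptake and glycolysis. Ucp3, the muscle uncoupling protein, was at 444, 721 and 1355 in WT and 198, 249.7 and 165 in KO (log2 -1.91 ± 0.34, adjusted p = 0.0318), the 1 called among 16 PPAR-responsive genes. Slc22a5, the carnitine transporter, was at 485, 419 and 667 in WT and 200.1, 192 and 206 in KO (log2 -1.36 ± 0.21, adjusted p = 0.0239), with 37.8% of its 31-base words shared, most with Slc22a21. Aldh9a1, an enzyme of carnitine synthesis, was at 1127 to 1859 and 490.1 to 822 (log2 -1.28, adjusted p = 0.0493). Abcd3, a peroxisomal transporter of fatty acids, was at 1114 to 1531 and 518 to 605 (log2 -1.17, adjusted p = 0.0264). The 2 wider pathway lists that follow gave no calls, and the called Slc22a5, Aldh9a1 and Abcd3 are not in them. None of 36 fatty acid oxidation genes passed; their median was -0.35 (-0.47 to -0.25 with 1 library left out), and in 7 every KO lay below WT (19.4%, against 10.3% of all genes). The one of smallest p was Esrra, a nuclear receptor that drives oxidative genes, at 1735 to 2107 in WT and 1019 to 1318 in KO (log2 -0.72, adjusted p = 0.108). None of 42 oxidative phosphorylation genes passed; their median was -0.32, and -0.52 to -0.12 with 1 library left out.

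Genes of signalling fell too. Colq, the collagen tail that anchors acetylcholinesterase, was at 185, 224 and 187 in WT and 52.1, 38.5 and 31.5 in KO (log2 -2.29 ± 0.25, adjusted p = 0.00308), the 1 called among 12 cholinergic genes. Arhgef19 (chr4:141239499-141257564), an exchange factor for small GTPases, was at 790.4, 833 and 667 in WT and 263, 225 and 241 in KO (log2 -1.65 ± 0.18, adjusted p = 0.00308). Asap3, a GTPase-activating protein for Arf proteins, was at 578, 889 and 958 in WT and 315, 235 and 274 in KO (log2 -1.53 ± 0.23, adjusted p = 0.0217). Arhgef19 and Asap3 were the called members among 39 genes of actin regulation and focal adhesion. Rapgef4 (Epac2), a cyclic AMP sensor, was at 877, 873 and 770.2 in WT and 438, 250.1 and 334 in KO (log2 -1.33 ± 0.22, adjusted p = 0.0264). Crhr2, the urocortin receptor, was at 342, 503 and 471 in WT and 198, 156 and 156 in KO (log2 -1.36 ± 0.21, adjusted p = 0.0261). All of these genes had KO libraries below every WT library. Grip2, a scaffold with PDZ domains, was at 775, 1858 and 1802 in WT and 440.1, 255 and 424 in KO (log2 -1.92 ± 0.33, adjusted p = 0.0312).

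Decreases also took in genes of striated muscle and of the microtubule system. The muscle ribosomal protein gene Rpl3l was at 4259.9, 2789 and 2095 in WT and 1341, 895 and 937 in KO (log2 -1.49 ± 0.27, adjusted p = 0.0345), the 1 called among 33 ribosomal protein genes. Lrtm1, a membrane protein with leucine-rich repeats, was at 8407, 10453 and 5438 in WT and 3585, 1427 and 2180.5 in KO (log2 -1.81 ± 0.34, adjusted p = 0.0404). The muscle genes Asb14 and Klhl30, adaptors of ubiquitin ligases, had log2 changes of -1.33 and -1.20, and Trim7, which binds glycogenin, one of -1.24. Rmdn1, a microtubule-associated protein, was at 592, 468 and 254 in WT and 134, 136 and 140.2 in KO (log2 -1.59 ± 0.28, adjusted p = 0.0314), with WT values far more spread than KO values. Tpgs2, a subunit of tubulin polyglutamylase, was at 514, 698 and 431 in WT and 190.0, 188 and 255 in KO (log2 -1.36 ± 0.23, adjusted p = 0.0264). Prune2 was at 546, 923 and 871 in WT and 325, 229 and 219 in KO (log2 -1.58 ± 0.25, adjusted p = 0.0239). The tesmin gene Mtl5 was at 142, 187 and 127 in WT and 71.0, 37.8 and 49.0 in KO (log2 -1.54 ± 0.28, adjusted p = 0.0378). Further decreases were the splicing factor Srrm4 (log2 -1.94), the secreted Spon2 (-2.39), the transcription factor Mitf (-1.15), Fam73b (Miga2, of mitochondrial fusion; -0.96) and 1 unnamed antisense transcript.

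The lists of calcium handling and the cytoskeleton, which the study's title names, gave few calls at this age. Casq1 (log2 2.62), called above, was counted with the skeletal muscle isoforms and is not in the calcium handling list. None of 36 calcium handling genes passed; their median was -0.11, turning to 0.02 without WT6 and 0.06 without WT16, and in 8 every KO lay below WT (22.2%, against 10.3% of all genes). Triadin, Trdn, which holds calsequestrin at the ryanodine receptor, was at 9761 to 11268 in WT and 5892 to 7509.5 in KO (log2 -0.68, adjusted p = 0.191). None of 34 listed microtubule genes passed (median 0.15); Tuba8, an alpha-tubulin, was at 1229.7 to 1558 in WT and 551 to 1059.7 in KO (log2 -0.98, adjusted p = 0.103). None of 34 sarcomere and Z-disc genes passed (median -0.13), with Synpo2l, an actin-binding Z-disc protein, at 194 to 262 and 398 to 818 (log2 1.20, adjusted p = 0.0783). The called genes Myh7, Acta1, Mybpc2 and Tnni1 were counted in other lists and are not in the sarcomere and Z-disc list. Likewise, the called Rmdn1 and Tpgs2 are not in the microtubule list. None of 26 genes of the intercalated disc and intermediate filaments passed (median 0.26). Among ion channels, Kcnip2, the accessory subunit of the fast transient outward current, was at 1142 to 1419 in WT and 544 to 801 in KO (log2 -0.89, adjusted p = 0.0792). None of 28 cell cycle genes passed (median 0.60). None of 24 tested neighbours of Sorbs2 on chromosome 8 passed. On that chromosome lie 6 called genes (7.69%), the targeted Sorbs2 itself among them, and 5.33% of tested genes with a position.

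**Figure D4:**
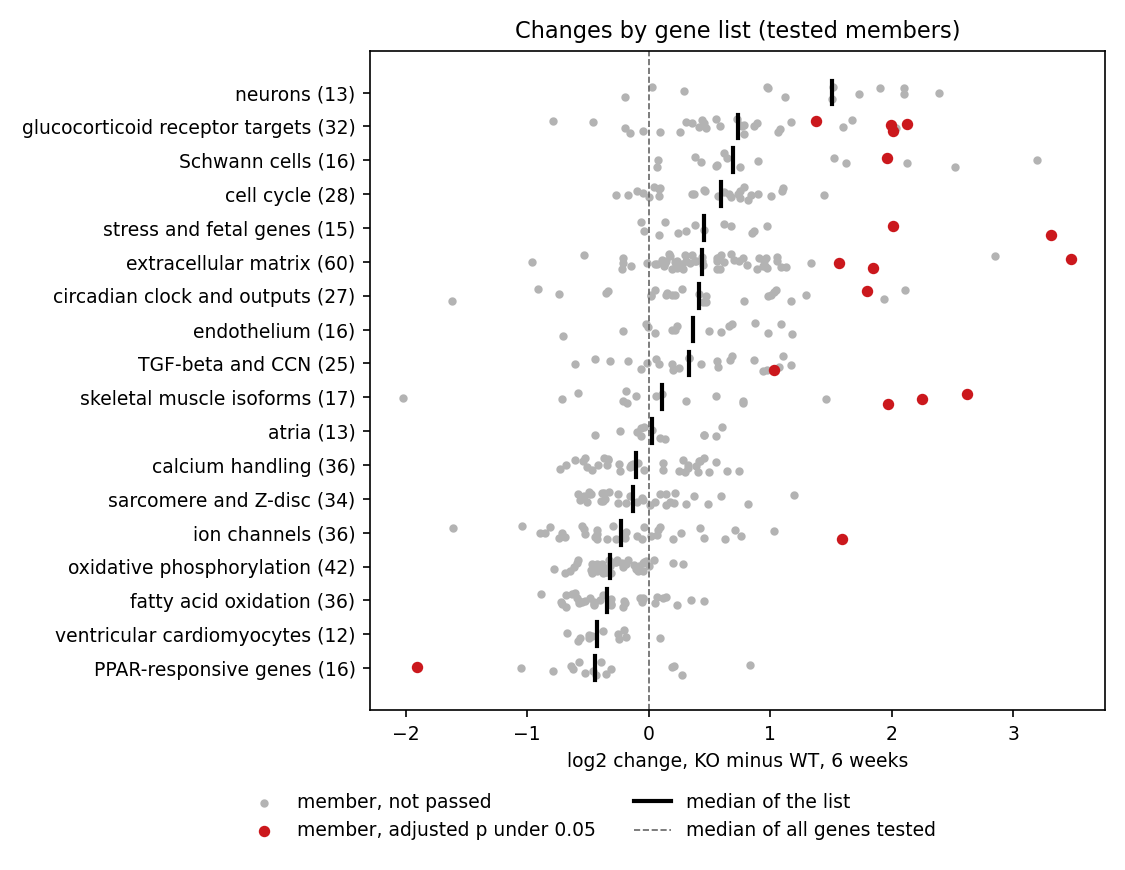
Log2 change (KO minus WT, 6 weeks) of each tested member of 18 gene lists. Red points passed an adjusted p of 0.05, black bars are list medians and the dashed line is the median of all genes. Glucocorticoid targets have 4 red points and calcium handling none, with Casq1 counted among the skeletal muscle isoforms.

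Some called genes were uncertain, because 8 of the 78 share over 10% of their 31-base words with another gene and 2 have over 10% of their exon bases under opposite-strand exons; the library kit was stranded, and the strand setting of the counting was not stated. The genes that follow were picked after their values were seen. The largest change was in Gm7334 (chr17:50698688-50699443), a processed pseudogene listed at 0 in all 3 WT libraries and at 66.1, 46.6 and 69.0 in KO2, KO3 and KO4 (adjusted p = 0.00308 by limma). Gm7334 met the filter of 10 or more in at least 3 libraries through the KO libraries alone, so its rank and p are a description. All of its 31-base words occur in Btg3 or other genes, and Btg3 was at 118 to 129.5 in WT and 90.4 to 127 in KO, overlapping ranges. At 6 months Gm7334 was at 89.8 ± 76.5 in WT and 40.1 ± 14.2 in KO (SD, n = 5 each). The pseudogene Gm5512 was at 868 to 1266 in WT and 281 to 415 in KO (log2 -1.5, adjusted p = 0.0217), with 86.1% of its words shared, most with Rmnd1. The histone gene Hist1h2ao was at 224, 165 and 172 in WT and 914, 373 and 629 in KO (log2 1.69 ± 0.29, adjusted p = 0.0314), with 93.8% of its words shared.

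The called genes were then followed in other animals at 6 months, where 8.13% of 13419 tested genes rose and 8.18% fell in KO. All 77 genes other than Sorbs2 were tested there. The call was repeated in the same direction for 21, made up of 15 of the 50 increases and 6 of the 27 decreases. The sign was kept in 46 of the 77, against 56.2% of all genes tested at both ages. Thbs4 was at 95.1 ± 33.9 (SD, n = 5) in WT and 3654 ± 1816 (n = 5) in KO at 6 months, and Cilp at 86.5 ± 23.0 and 2412 ± 613. Myh7 was at 14182 ± 5578 and 139010 ± 45930, and Casq1 at 186 ± 54.9 and 2353 ± 1322. Acta1, Mybpc2, Tnni1, Fibin, Adamtsl2, C1qtnf6, Igfbp7, Emp1, Bst2, Cnksr1 and Hist1h2ao completed the repeated increases, with log2 changes at 6 months from 0.70 (Bst2) to 3.38 (Tnni1). The repeated decreases were Pfkfb1 (log2 -1.71 at 6 months), Lrtm1 (-2.07), Rpl3l (-1.80), Crhr2 (-1.19), Asb14 (-0.77) and Rmdn1 (-0.62). Of the lists with few calls at 6 weeks, 44 of 59 matrix genes rose at 6 months, and 35 of 42 oxidative phosphorylation and 26 of 36 fatty acid oxidation genes fell.

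Other changes did not recur. None of 32 glucocorticoid targets rose at 6 months, when Fkbp5 was at 692 ± 289 in WT and 805 ± 466 in KO; the clock gene Hlf was at 347 ± 153 and 205 ± 94.4 (SD, n = 5 each). A test of the difference itself found 39 of the 77 changes to differ between the ages, against 4.08% of the 12709 genes tested at both: 38 were smaller or opposite at 6 months and 1, Cilp, was larger. The 77 were chosen by their 6-week values, which enter that difference, so their count is a description. In 4 genes both ages passed with opposite signs. Mbp, Adh1 and Thrsp rose at 6 weeks and fell at 6 months, with log2 changes there of -1.11, -1.15 and -1.0, and Prune2 fell at 6 weeks and rose at 6 months (1.17). Of the 5 genes whose call no single library decided, Casq1, Thbs4 and Pfkfb1 repeated. Arhgef19 was at 270.2 ± 53.2 in WT and 299.8 ± 69.4 in KO at 6 months, and Colq at 159 ± 36.2 and 109 ± 64.6, and both changes differed between the ages (adjusted p = 0.000163 and 0.0427). Age cannot be told apart from the atrial content, the other tissues and the separate normalisation of the tables. The alternative counts that follow are among the genes called at 6 weeks in each fit, not among the 77. With libraries scaled to equal totals, 36 genes were called, Sorbs2 included, and 14 repeated and 16 differed. Without WT1, WT6, WT16, KO2, KO3 or KO4, the 6-week fit called 49, 8, 128, 154, 9 and 7 genes, Sorbs2 included. Of the called genes other than Sorbs2, the number that repeated was 13 (WT1), 4 (WT6), 27 (WT16), 35 (KO2), 5 (KO3) and 4 (KO4). The number that differed was 26, 2, 62, 70, 1 and 1 in the same order.

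**Figure D5:**
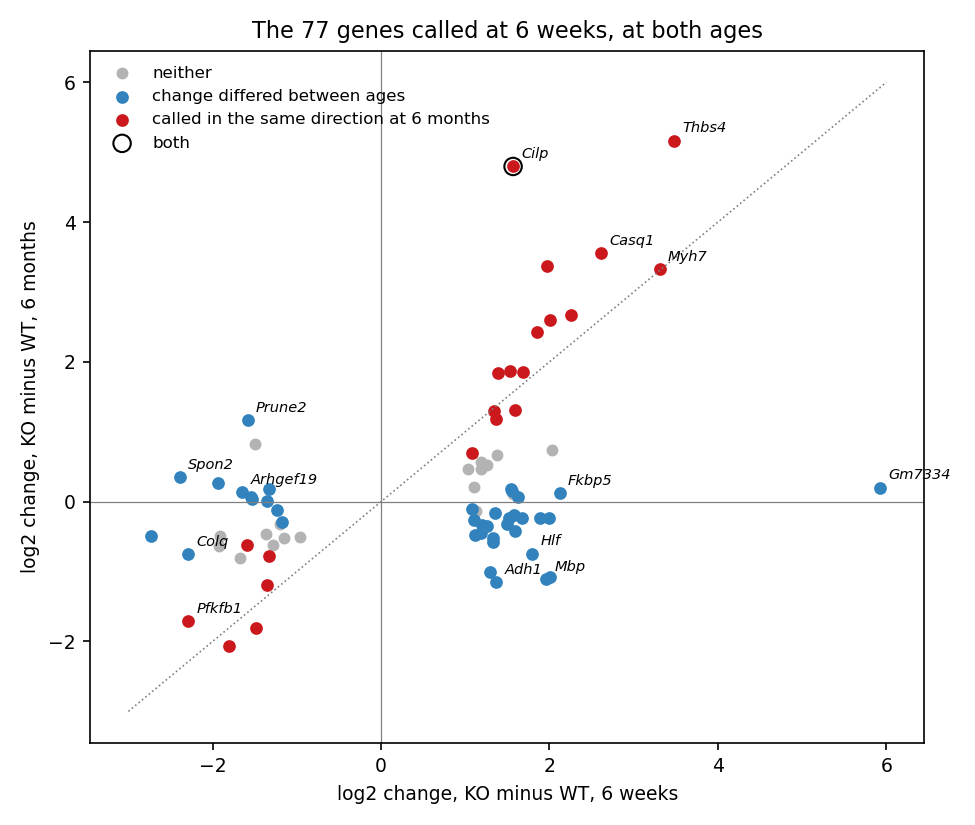
Log2 change (KO minus WT) at 6 weeks and at 6 months for the 77 genes called at 6 weeks other than Sorbs2. The 21 red genes were called in the same direction at 6 months, the blue genes changed by a different amount between the ages, and the circled gene, Cilp, did both.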

How the data were processed

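Hearts were profiled by poly(A)-selected, stranded RNA sequencing. The authors deposited 1 table of normalised counts per age, a signal that is not whole reads, so no count model was used. A minimum number of read pairs is stated for the libraries, but the read depth of each library is unknown. The build is mm10 per the submitters' processing notes; aligner and counter were not given in the sources used here. Each table was analysed on its own in limma 3.58.1 (R 4.3.3) on log2(value + 1), which understates the change of low genes, moderating variances with a trend on the mean, for genes of at least 10 in at least 3 libraries (6 weeks) or 4 (6 months, where KO, WT and KO+AAV shared the spread); p-values are two-sided, Benjamini-Hochberg adjusted. The change between ages was tested as the difference of log2 changes over their combined standard error. The fit was tested on simulated data in which genes varied independently. Shifts that whole libraries share were not simulated. Positions come from GENCODE vM21, 74 of 78 by symbol and 4 by RefSeq synonym. Named genes were the called genes, list members with the smallest p, members of the 3 lists with the most calls, defining markers and genes beside the threshold. Some genes are not reported here. Comparison and lists were chosen with earlier results of these data known. Column names at 6 weeks do not follow the labels' replicate numbers, so columns were matched to groups only; at 6 months, 7 of 13 like-numbered pairs correlated above 0.1 (-0.39 to 0.25), so the numbers were not taken as pairs. Alternatives covered the pseudocount, filter, scaling, variance model, covariates and left-out libraries.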

Additional observations from a re-analysis of the deposited data

Results flagged for a closer look

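In 39 genes called at 6 weeks, of which 38 are given here, the KO change differed between the ages in a test of that difference (limma estimates at each age, adjusted p under 0.05 over all genes tested at both). The genes were chosen by their 6-week values, which enter that difference, so the list is a description. With 1 library of the 6-week table left out, the count ran from 1 to 70, each time among the genes called without that library. The values are the log2 change at 6 months minus that at 6 weeks. Among genes that rose at 6 weeks, the change was lower at 6 months by these amounts: Gm7334 -5.73, Fkbp5 -2.0, Fam107a -3.09, Ddit4 -2.23, Mbp -3.07, Fam117b -2.13, Hlf -2.54, Cdc42ep4 -1.91, Sema7a -1.56, Kcna5 -2.01, Bcl2l1 -1.77, Hspa2 -1.40 and Fam171a2 -1.37. The same held for Ly6c1 -1.76, Fmo2 -1.81, Adh1 -2.52, Gatsl3 -1.51, Mcf2l -1.91, Adgrg1 -1.84, Thrsp -2.29, Tes -1.61, Ramp2 -1.54, Hey1 -1.64, Tinagl1 -1.60, Tpst2 -1.38 and Ier5 -1.20. Among genes that fell at 6 weeks, the change was higher at 6 months: Abcd3 0.89, Trim7 1.12, Rapgef4 1.52, Tpgs2 1.37, Asap3 1.56, Mtl5 1.61, Prune2 2.75, Arhgef19 1.78, Srrm4 2.21, Colq 1.53 and Spon2 2.74. The matrix gene Cilp, which rose at both ages, had the 1 larger change at 6 months, with a difference of 3.23.

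At 6 months, single libraries stood far from the rest of their group for some atrial markers, in 6 of 15 groups tested. The gap used is one that normally distributed values give in about 1 in 20 groups. These values are normalised counts, many near 0, and the markers were measured in the same libraries. The 6 can therefore not be set against that rate. Myl7 reached 47.5 in 1 WT library and 459 in 1 KO library. Myl4 reached 634 and sarcolipin (Sln) 89.9 in 1 KO library each. Bmp10 was at 1.88 in 1 WT library and 0.960 in 1 KO+AAV library and at 0 in the other libraries of those groups, so that any value above 0 stands apart by construction, and these were read as no difference.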

How the results depend on the processing

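The 78 calls (50 up, 28 down) moved with the settings. The count was 124 (80 up, 44 down) with a value of 10 required in all 6 libraries, 36 (27 up, 9 down) with equal totals, which moves the median of all genes to 0.10, 12 (6 up, 6 down) with no mean-variance trend, 2371 (1194 up, 1177 down) with library weights and 189 (117 up, 72 down) with Xist class as covariate. Alternatives chosen after seeing the data gave 130 (85 up, 45 down) with the Myl7 level as covariate, 15 (8 up, 7 down) with the Prph level, 4 (2 up, 2 down) without KO3 and KO4, 455 (233 up, 222 down) without WT1 and KO2 and 4 (3 up, 1 down) without WT6 and KO4. Leaving out 1 library gave 7 to 154 calls (3 to 104 up, 4 to 50 down). The cause was not tested. The other settings stayed within 1.5 times the count. Sorbs2 kept its direction throughout, at -2.53 to -2.28 with 1 library left out; without KO3 and KO4 it was -2.22 (adjusted p = 0.0544, limma). Of 1690 pairs of a called gene and a setting, 1076 kept the call, 614 lost it and none reversed. The 21 calls repeated at 6 months ran from 4 to 35 and the 39 age differences from 1 to 70 with 1 library of the 6-week table left out. Equal totals gave 16 age differences. Each of these counts is among the genes called at 6 weeks in that fit, whose number also moved. No paired analysis was possible at 6 weeks because the WT and KO columns share no number; with a replicate block at 6 months, 21 calls repeated and 37 changes differed. Only a minimum number of read pairs is stated and the read depth of each library is unknown, so counting error could not be given.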
